A study of Mus musculus with 4 samples.

Results

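Circular RNAs (circRNAs) of 5 signalling genes were examined in mouse heart: the protein kinase genes Tlk1, Yes1 and Map4k2, the lipid kinase gene Dgkd and the Ras pathway inhibitor gene Spred2. They comprise every circRNA whose host label in the files names one of the 5 genes, which gave 7 of the 1046 circRNAs listed and 173 of 7303 back-splice reads. The hearts came from C57BL/6 mice that had sham surgery (2 libraries, sham 1 and sham 2) or ischemia followed by reperfusion (I/R), a stop and later return of the coronary blood supply (2 libraries, I/R 3 and I/R 4). Values for all 4 are given below in this order, called library order. Total RNA was sequenced, and no other agent or allele is named for either group. Age, the part of the heart sampled, the times of ischemia and reperfusion and whether a library pools hearts are not given in the sources used here. No source tells whether libraries within a group are separate animals, so a p-value speaks only of the spread among these libraries, and that may be technical.

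The 5 genes were selected on these same libraries, by function, with the sham and I/R values of back-splice reads, non-junction reads and circular share already in view. All values of that contrast below, calls included, are therefore descriptions of the members and support nothing on their own.

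A circRNA forms when the end of a downstream exon is spliced back to the start of an upstream exon of the same transcript. The closed loop has no free ends and is often more stable than the linear mRNA of the same gene, with which its production competes. Tlk1 is a nuclear serine/threonine kinase that acts on histone chaperones during chromatin assembly. Yes1 is a Src-family tyrosine kinase at the plasma membrane, and Map4k2 is a germinal centre kinase at the top of a cascade leading to the stress kinase JNK. Dgkd turns the second messenger diacylglycerol into phosphatidic acid, and Spred2 restrains signalling from Ras to the kinases of the ERK cascade.

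The files place all 7 circRNAs in exons, and all 7 carry a circBase identifier. In mm9, the build of the files, the 3 Tlk1 circRNAs lie on the minus strand of chromosome 2 and share the end 70625052, with starts at 70608061, 70606919 and 70576478. The Yes1 circRNA lies on chromosome 5 from 32942704 to 32966773, that of Map4k2 on chromosome 19 from 6341903 to 6342657, that of Dgkd on chromosome 1 from 89776943 to 89778514 and that of Spred2 on chromosome 11 from 19898123 to 19908480, each on the plus strand. The length of each span was compared with the distances between exon ends in GENCODE M21 (build GRCm38), and exactly 1 pair of exon ends of each host gene, in the transcripts used, gave that length. By this match the Tlk1 circRNAs run from exon 2 to exons 3, 4 and 12. The circRNA ending at exon 4 was matched only in transcripts without a coding sequence. Yes1 was matched to exons 2 to 11 of 12, Map4k2 to exons 4 to 6 of 32, Dgkd to exons 2 to 3 of 30 and Spred2 to exons 2 to 4 of 6. The spans were 16992, 18134 and 48575 bases for Tlk1, 24070 for Yes1, 10358 for Spred2, 1572 for Dgkd and 755 for Map4k2. The match rests on length, not on converted coordinates, and reads across a back-splice do not show which inner exons a circle keeps.

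The sequence across each back-splice is what sets these molecules apart from the linear mRNA. The following 30 bases are taken from the matched GENCODE M21 transcripts, 5′ to 3′ on the transcript strand, with the last 15 bases of the final exon in lower case and the first 15 bases of the first exon in capitals.
Tlk1 exons 2 to 3: gacaaagaatcagagGTGCAATGGATGAGC
Tlk1 exons 2 to 4: gtaggttcccttgagGTGCAATGGATGAGC
Tlk1 exons 2 to 12: ggacatctcaaaaagGTGCAATGGATGAGC
Yes1 exons 2 to 11: gagtgccatatccagATTTGATAATGGGCT
Map4k2 exons 4 to 6: caccgagacattaagGAATGACCGATTGTG
Dgkd exons 2 to 3: aacaacagttttacgACCATCCTCAAAGAA
Spred2 exons 2 to 4: gatgacgttttcacgTGACAGCTATATTGT
The 3 Tlk1 circRNAs show the same capitals, since they share the start of exon 2 and differ in the exon joined to it. In Yes1 the capitals hold 8 noncoding bases followed by ATG, the first triplet of the annotated coding sequence. The Spred2 junction is the same in a longer transcript with 1 more exon between the splice sites.

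Where only 2 or 3 exons lie between the splice sites, the predicted circle is short enough to show whole. Exon bases are given in GRCm38 coordinates, with introns left out and the 15 bases on either side of the back-splice in capitals at the ends of the run. These are the most abundant member, the member with the largest change in non-junction reads and the member that both sham libraries and no I/R library list.
Tlk1 exons 2 to 3, chr2:70770004-70786995, minus strand: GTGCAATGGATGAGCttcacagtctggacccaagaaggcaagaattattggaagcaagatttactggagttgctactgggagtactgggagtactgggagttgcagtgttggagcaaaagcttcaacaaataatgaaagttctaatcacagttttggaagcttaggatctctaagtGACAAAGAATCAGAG
Map4k2 exons 4 to 6, chr19:6341903-6342657, plus strand: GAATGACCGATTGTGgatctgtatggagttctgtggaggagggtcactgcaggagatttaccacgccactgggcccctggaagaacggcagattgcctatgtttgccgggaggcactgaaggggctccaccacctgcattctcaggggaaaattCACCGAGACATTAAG
Dgkd exons 2 to 3, chr1:87880368-87881939, plus strand: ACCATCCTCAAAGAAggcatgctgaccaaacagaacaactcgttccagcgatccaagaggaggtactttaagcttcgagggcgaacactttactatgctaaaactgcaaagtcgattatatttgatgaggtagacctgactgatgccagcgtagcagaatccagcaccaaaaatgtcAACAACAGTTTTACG
The spliced lengths are 191 bases in Tlk1 exons 2 to 3, 169 in Map4k2 and 192 in Dgkd, all annotated as coding. Those of the others would be 260 and 1097 bases for the longer Tlk1 circles, 1425 for Yes1 and 412 for Spred2 (493 with the further exon). The length is a multiple of 3 in Dgkd and Yes1.

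**Figure D1:**
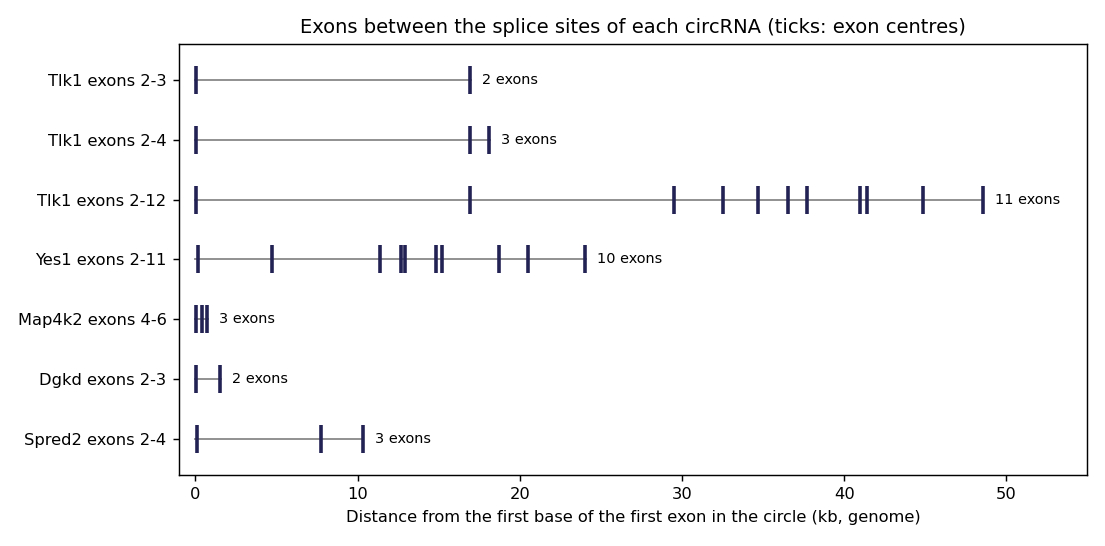
Position of the exons between the splice sites of each circRNA. The horizontal axis gives the distance in kb along the genome from the first base of the first exon in the circle, ticks stand for exon centres and the grey line for the span. The Tlk1 circles share their first exons and reach 3 different ends, whereas the 3 exons of Map4k2 lie within 755 bases.

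A start at exon 2 was shared by 6 of the 7 circRNAs, all but that of Map4k2. Under the stricter rule of basic coding transcripts, 6 members were matched and 5 (83.3%) could start at exon 2, beside 363 of 884 (41.1%) exonic circRNAs of the whole series. In the 6 circRNAs other than that of Map4k2, both introns beside the circle were longer than the series median. The intron before the first exon measured 73163 bases in Spred2, 38197 in Tlk1, 28493 in Yes1 and 26911 in Dgkd, against 68 bases in Map4k2 and a median of 11302 over 877 exonic circRNAs. The intron after the last exon ranged from 9574 bases in Spred2 to 33160 in Dgkd in these 6 and was 86 bases in Map4k2, with a median of 9365 over 884 circRNAs. Map4k2 was thus the exception in position and in both introns. The members share hosts and were few, so no test was made of these features.

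Depth limits every value that follows. The libraries held 1627 to 1982 back-splice reads, and no library lists a circRNA below 2 reads, so a value of 0 stands for 0 or 1 read. The members took 43 reads in sham 1, 45 in sham 2, 45 in I/R 3 and 40 in I/R 4. As a share of all back-splice reads the sham mean was 2.52 ± 0.35% and the I/R mean 2.26 ± 0.34% (SD, n = 2), and the groups overlapped. Among hosts that mark cell types, 8 of 15 cardiac muscle genes had listed circRNAs, with 178 to 283 reads in sham libraries and 273 to 386 in the I/R libraries. Endothelial hosts (2 of 10 genes) had 6, 7, 6 and 10 reads in library order, smooth muscle and pericyte hosts (1 of 8) at most 3 in a library, and fibroblast and leukocyte hosts (0 of 10 each) none, Col1a1 and Ptprc among them. A gene need not form a circle where it is expressed, so these counts describe circRNA hosts only. In such bulk tissue, fewer cells of a type and less RNA per cell cannot be told apart.

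Tlk1 had by far the most reads of the 5 hosts. Its circRNA of exons 2 to 3 had 18, 22, 28 and 19 reads in library order, which put it in place 9 of 1046 by total reads. The highest and the second lowest of these values both came from I/R libraries, and the groups overlapped. Scaled to the back-splice reads of the library (CPM, in which 1 read is worth 505 to 615), the sham mean was 11523 ± 2827 and the I/R mean 12554 ± 4197 (SD, n = 2). The fitted log2 fold change, I/R over sham, was 0.25 with a standard error (SE) of 0.39, and -0.22 without I/R 3. Each back-splice is counted at 1 junction whatever the length of the circle, so reads were not scaled by circle length. Whether different circles are detected equally well was not tested. The circRNA of exons 2 to 4 had 4, 7, 6 and 4 reads in library order (log2 fold change -0.12, SE 0.48), again overlapping. Its fitted change was 0.22 without sham 2 and 0.14 without I/R 4. That of exons 2 to 12 was listed in sham 2 alone, with 2 reads, too few to be tested.

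The choice among the 3 Tlk1 ends was much the same in all libraries. Exons 2 to 3 took 81.8% of Tlk1 reads in sham 1 (95% Clopper-Pearson interval 59.7 to 94.8), 71.0% in sham 2 (52.0 to 85.8), 82.4% in I/R 3 (65.5 to 93.2) and 82.6% in I/R 4 (61.2 to 95.05). The intervals overlap throughout. They describe counting error alone, because without molecular identifiers several reads may stem from 1 molecule. Over the 4 libraries this was 87 of 110 reads, or 79.1%, beside 19.1% for exons 2 to 4 and 1.82% for exons 2 to 12. No read name was listed under more than 1 of the member circRNAs in any library.

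The second kinase, Yes1, had more back-splice reads in both I/R libraries. There were 5 in sham 1, 3 in sham 2, 7 in I/R 3 and 13 in I/R 4. Each I/R value was higher than either sham value, but I/R 4 stood far above I/R 3. The sham mean was 2245 ± 567 CPM and the I/R mean 5220 ± 1894 CPM (SD, n = 2), with a log2 fold change of 1.31 and an SE of 0.52. Leaving out each library in turn, in library order, gave 1.75, 0.88, 1.53 and 0.81. Of 158 circRNAs tested, 28 (17.7%) likewise had I/R CPM values wholly above those of sham.

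Map4k2 gave few back-splice reads, at much the same number in every library, with 3, 3, 4 and 2 in library order. The groups overlapped. The fitted log2 fold change was 0.02 with an SE of 0.71, and its sign changed with the scaling (-0.09 by library size alone). Its total of 12 reads equals that of the Spred2 circRNA.

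Dgkd and Spred2 were lower in the I/R libraries. The Dgkd circRNA had 8 reads in sham 1 and 3 in sham 2 and was listed at 0 in both I/R libraries. The sham libraries thus differed from each other by more than sham 2 differed from the smallest count that a library lists. No fold is given, because the I/R libraries may hold 1 read each. The Spred2 circRNA had 5 reads in each sham library, was listed at 0 in I/R 3 and had 2 in I/R 4. The sham mean was 2859 ± 302 CPM and the I/R mean 505 ± 714 CPM (SD, n = 2), with a log2 fold change of -2.17 and an SE of 1.14. Without I/R 3, the library at 0, it was -1.41. In both circRNAs the I/R values lay below both sham values, as they did in 33 of the 158 circRNAs tested (20.9%).

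None of the 6 member circRNAs tested passed edgeR's quasi-likelihood test at an adjusted p of 0.05, nor did any of the 158 tested (0%; 9 had an unadjusted p under 0.05, and 6 in DESeq2 with 0 calls). To be tested, a circRNA needed 10 reads in all and a read in 2 libraries. Summed over each host, the reads gave 0 of 5 member hosts and 0% of 153 hosts tested in edgeR (8 at an unadjusted p under 0.05, and 4 in DESeq2 with 0 calls). Only Tlk1 has more than 1 circRNA among the members. For the other member hosts the sum holds the same counts as the circRNA, so it is not a separate result. The sums had log2 fold changes of 0.15 (SE 0.44) for Tlk1, 1.35 (SE 0.63) for Yes1, 0.04 (SE 1.07) for Map4k2 and -2.13 (SE 1.34) for Spred2. For Tlk1 it was -0.08 if sham 1 was left out and -0.12 if I/R 3 was. Spred2 stood at -1.19 without I/R 3, and Yes1 at 0.81 without I/R 4.

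**Figure D2:**
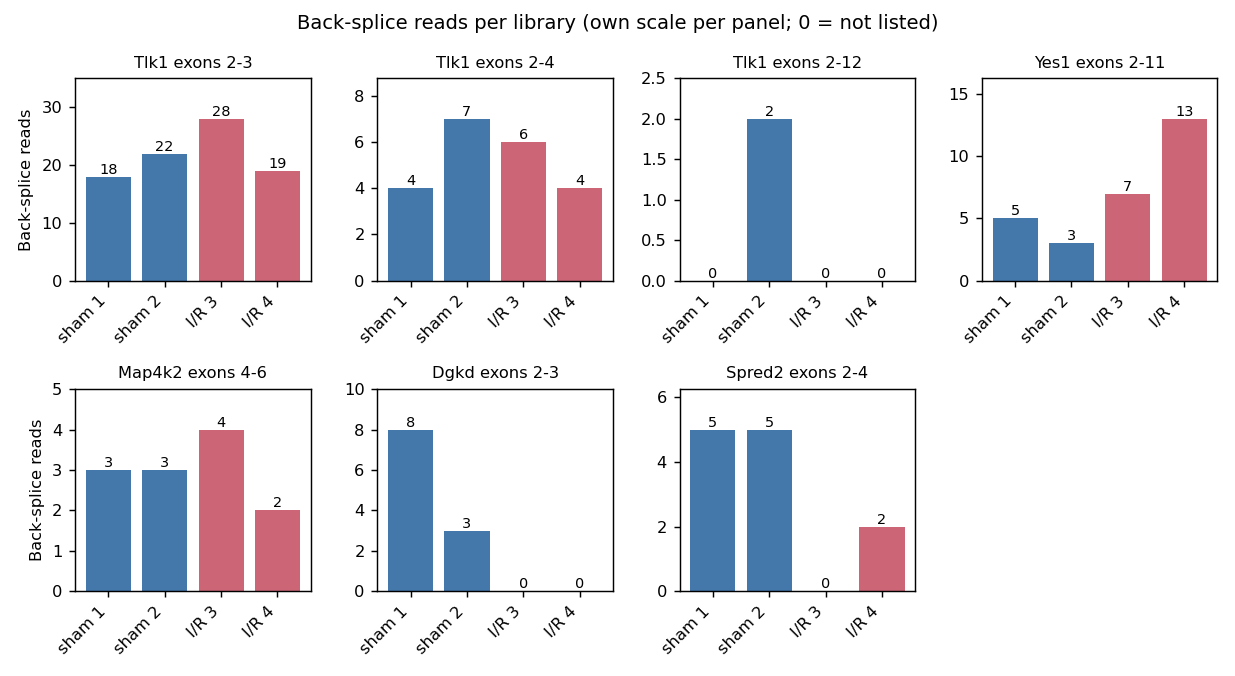
Back-splice reads of the 7 circRNAs in each library. Bars start at 0 and each panel has its own vertical scale, with blue for sham and red for I/R, and 0 stands for a circRNA that the library does not list. Tlk1 exons 2 to 3 lies between 18 and 28 reads in every library, Yes1 reaches 13 in I/R 4, and Dgkd is at 0 in both I/R libraries.

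The authors' deposited table of their own comparison gave Dgkd an adjusted p under 0.05, the only member with one, while 11 of its 1046 circRNAs (1.05%) had one. In the authors' deposited table Dgkd had a log2 fold change of -3.44 and an adjusted p of 0.0373. Its header does not state the direction, but the sign of Dgkd, listed in both sham libraries and no I/R library, is that of I/R over sham. The size of that fold rests on the 2 I/R libraries at 0, which may hold 1 read each. Dgkd did not pass in edgeR without a filter (adjusted p = 0.544), in DESeq2 (adjusted p = 0.401) or in limma-voom after the filter (adjusted p = 0.839). The log2 fold changes in the authors' deposited table were 1.19 for Yes1 (adjusted p = 0.503), -2.32 for Spred2 (adjusted p = 0.524) and 0.18 for Tlk1 exons 2 to 3 (adjusted p = 0.524). A limma-voom fit of I/R over sham without a filter on low counts gave the members the same values as the authors' deposited table. It called 11 circRNAs, 1 member among them (Dgkd, adjusted p = 0.0373), so it is not a second, independent result. After the filter of 10 reads limma-voom called 0.

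Reads that touch the same splice sites without crossing the back-splice, called non-junction reads, may stem from linear mRNA or from other parts of a circle. They are given only where a library lists the circRNA, so all 4 libraries can be compared for 4 members. Map4k2 showed the clearest pattern. It had 100, 120, 61 and 46 such reads in library order. Every I/R value lay well below both sham values (110.0 ± 14.1 against 53.5 ± 10.6 reads, SD, n = 2), as was so after scaling at 31.4% of the 102 sites. The fitted log2 fold change was -0.95 with an SE of 0.22, and it was the 1 of the 4 members to pass an adjusted p of 0.05 in edgeR, where 8.82% of 102 sites passed in either direction and 4.9% were lower in I/R. The call was lost in DESeq2 (log2 fold change -0.94), in edgeR without sham 2 (-0.79) and in edgeR without I/R 4 (-0.72). Over its alternatives in edgeR and DESeq2 the log2 fold change ran from -1.16 to -0.72.

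The other 3 members listed in all libraries had smaller differences. At Tlk1 exons 2 to 3 there were 88, 106, 106 and 126 in library order (log2 fold change 0.34, SE 0.20). The counts of sham 2 and I/R 3 were equal, but after scaling with TMM (trimmed mean of M values) the I/R values were the higher ones, as at 27.5% of the 102 sites. The change was 0.22 without sham 1 and 0.13 by library size only. At Tlk1 exons 2 to 4 there were 44, 49, 39 and 45 (log2 fold change -0.06, SE 0.24), a sign that changed without sham 2 or I/R 3. At Yes1 there were 51, 48, 48 and 63 (log2 fold change 0.25, SE 0.23), again with the scaled I/R values above those of sham. The change there was 0.085 without I/R 4, 0.44 without I/R 3 and 0.042 by library size only. I/R 4 stood out there, as it did in the back-splice reads of this gene. None of these 3 passed in edgeR.

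For the members missing from an I/R library only part of the comparison exists. Spred2 had 19 non-junction reads in sham 1, 31 in sham 2 and 43 in I/R 4. The I/R 4 value is the highest, in the library with the fewest listed back-splice reads of this circRNA. Dgkd had 50 in sham 1 and 79 in sham 2, so the library with more back-splice reads had fewer non-junction reads. The Tlk1 circle of exons 2 to 12 had 61 in sham 2.

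**Figure D3:**
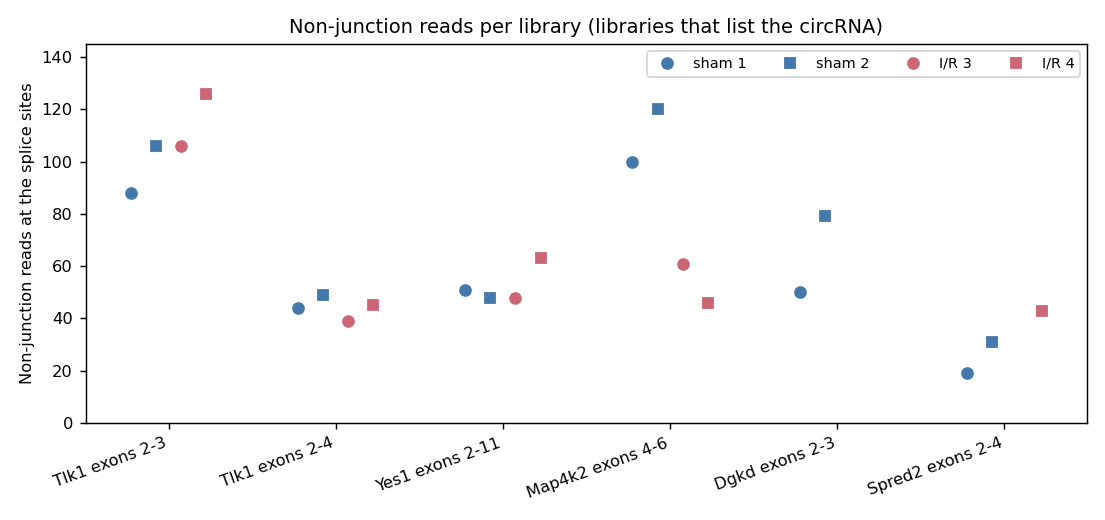
Non-junction reads (vertical axes) of the 6 circRNAs that at least 2 libraries list. Circles and squares stand for the first and second library of a group, blue for sham and red for I/R. At Map4k2 the I/R libraries lie at 46 and 61, below the sham libraries at 100 and 120, while the other members listed in all libraries overlap or nearly so.

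The circular share sets both kinds of read against each other, as 2 times the back-splice count divided by that number plus the non-junction count, since a linear transcript can give a read at either splice site. At Tlk1 exons 2 to 3 it was 29.0% in sham 1 (95% interval 18.8 to 40.6), 29.3% in sham 2 (19.98 to 39.8), 34.6% in I/R 3 (25.1 to 44.7) and 23.2% in I/R 4 (14.9 to 32.9). The I/R libraries lay on either side of the sham libraries, and the means were 29.2 ± 0.21% and 28.9 ± 8.06% (SD, n = 2). Averaged over the libraries this site was in place 16 of the 102 listed in all of them, whose median share was 10.9% over sites and libraries. Tlk1 exons 2 to 4 had 15.4, 22.2, 23.5 and 15.1% in the same order, with a sham mean of 18.8 ± 4.83% and an I/R mean of 19.3 ± 5.96% (SD, n = 2). Neither Tlk1 circle differed by more than the spread between libraries.

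Yes1 had the largest difference in share of the 4 members listed in all libraries. It was 16.4% in sham 1 (5.76 to 32.8), 11.1% in sham 2 (2.43 to 27.9), 22.6% in I/R 3 (10.02 to 39.3) and 29.2% in I/R 4 (17.2 to 43.1). The intervals of single libraries overlap, although the I/R values are the 2 highest. The means were 13.8 ± 3.74% and 25.9 ± 4.69%, a difference of 12.1 percentage points (SD, n = 2). Without I/R 4 the difference was 8.83 points and without I/R 3 it was 15.5. Counting each back-splice read once rather than 2 times gave 7.51 points.

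At Map4k2 the share was 5.66% in sham 1 (1.20 to 15.3), 4.76% in sham 2 (1.01 to 13.0), 11.6% in I/R 3 (3.35 to 26.1) and 8% in I/R 4 (1.01 to 24.95). The means were 5.21 ± 0.64% and 9.80 ± 2.54% (SD, n = 2), 4.59 points apart, or 2.48 with each back-splice read counted once. The difference was 2.79 points without I/R 3 and 6.38 without I/R 4. Here the back-splice reads hardly moved and the non-junction reads were fewer in I/R, whereas at Yes1 the back-splice reads were more and the non-junction reads differed little. At each of the genes the I/R shares exceeded the sham shares, as at 30.4% of the 102 sites. The share of Spred2 was 34.5% in sham 1 (13.3 to 59.3), 24.4% in sham 2 (8.92 to 45.6) and 8.51% in I/R 4 (1.08 to 26.3). That of Dgkd was 24.2% in sham 1 (11.6 to 40.5) and 7.06% in sham 2 (1.51 to 18.7), a wide gap within 1 group.

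The change of back-splice against non-junction reads was fitted over the same 102 sites. The log2 ratio change was 1.08 (SE 0.45) at Yes1, 0.96 (SE 0.56) at Map4k2, -0.09 (SE 0.29) at Tlk1 exons 2 to 3 and -0.06 (SE 0.48) at Tlk1 exons 2 to 4. Of these 4 members 0 passed an adjusted p of 0.05 in edgeR, where 0% of the 102 sites passed (4 at an unadjusted p under 0.05, and 2 in DESeq2 with 0 calls). Yes1 was at 0.71 without sham 2, and Map4k2 at 0.58 without I/R 3. Without I/R 4 both Tlk1 values were above 0, at 0.24 and 0.26, and without sham 2 that of exons 2 to 4 was 0.22.

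**Figure D4:**
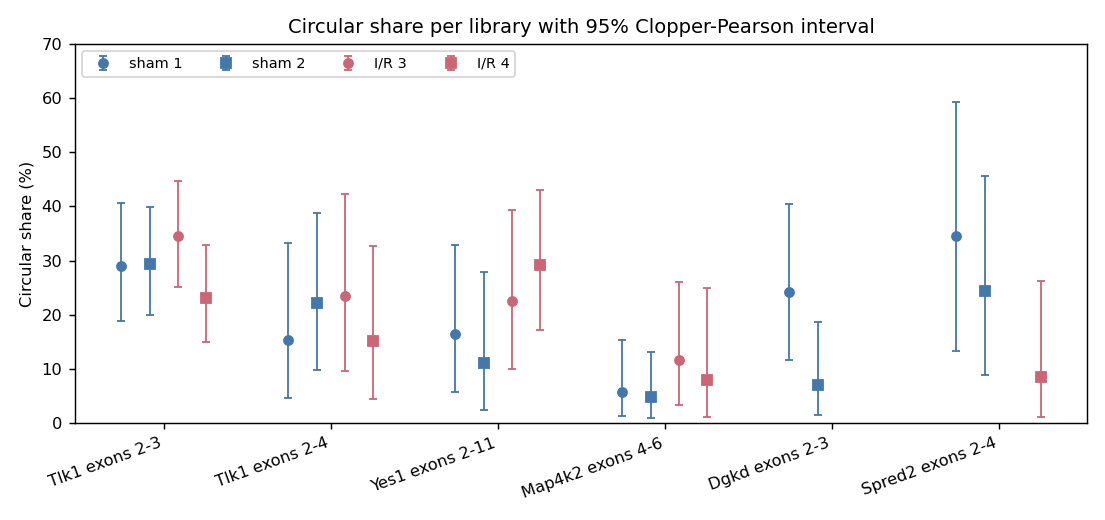
Circular share of each circRNA per library with its 95% Clopper-Pearson interval, for the 6 circRNAs listed in at least 2 libraries. Blue stands for sham, red for I/R, and the intervals cover counting error only. Yes1 lies at 16.4 and 11.1% in sham and at 22.6 and 29.2% in I/R, with overlapping intervals, while Tlk1 exons 2 to 3 lies near 29% in both groups.

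**Figure D5:**
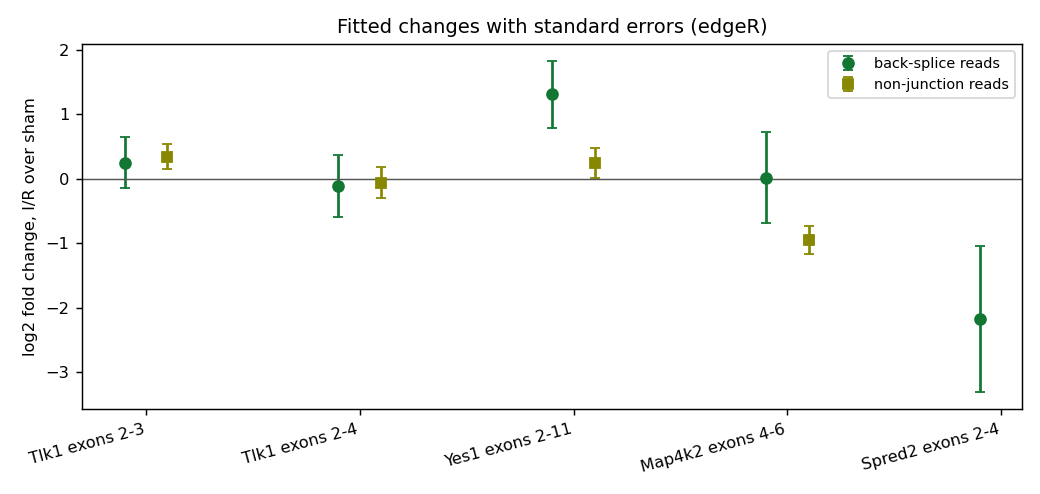
Fitted log2 fold changes, I/R over sham, of back-splice reads (green circles) and non-junction reads (olive squares), with standard errors from edgeR. Spred2 has no non-junction value because 1 library does not list it, and Dgkd is left out because both I/R libraries are at 0. Back-splice reads of Spred2 (-2.17) and Yes1 (1.31) lie farthest from 0 but did not pass in edgeR, and the non-junction reads of Map4k2 (-0.95) passed.

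Close relatives of the 5 genes seldom had circRNAs. Of the Map4k family, Map4k3, which also feeds the JNK cascade, had 0, 2, 2 and 0 reads and Map4k4 had 2 in I/R 3 alone. Of the diacylglycerol kinases, Dgkh had 2 reads in I/R 4. Spred1, which like Spred2 inhibits the step from Ras to Raf, had 0, 2, 2 and 0. No circRNA was listed for Tlk2, nor for Src, Fyn, Lyn or Lck, relatives of Yes1. Counts this small, at the least a library lists, allow no comparison between groups.

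Among 347 other protein kinase genes, 34 were hosts of 55 circRNAs, with 137, 78, 79 and 70 reads in library order. Of this list 10 circRNAs of 7 hosts could be tested. The fitted change was positive in 4 and negative in 6, with a median log2 fold change of -0.44 beside 0.06 for all 158, and 0 passed. Rps6kb1, the S6 kinase that acts below mTOR, had 5, 3, 7 and 6 reads (log2 fold change 0.70, SE 0.45). Stk39, a kinase that regulates ion cotransporters, had 6, 3, 6 and 3 reads over 2 circRNAs.

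Of 92 Ras and MAPK regulator genes, 13 were hosts of 17 circRNAs, with 21, 15, 20 and 24 reads. Rasa2, a GTPase-activating protein that switches Ras off, had 0, 5, 9 and 8 reads over 2 circRNAs, and the low value came from a sham library. The docking protein gene Gab1 had 3, 4, 5 and 3, and Ralgapa2, a subunit of a complex that inactivates Ral GTPases, had 5, 0, 0 and 4. Only 2 circRNAs of this list were tested, that of Rasa2 (log2 fold change 1.82, SE 1.16) and 1 of Gab1 (-0.20, SE 0.61), and 0 passed. Of 50 lipid and inositol kinase genes, 4 had 1 circRNA each, Pip5k1b with 3 reads and Dgkh, Pik3c2a and Pip4k2a with 2 each, and none was tested.

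Hosts with a like profile over the 4 libraries were sought by the Euclidean distance of centred log2 CPM. Closest to Tlk1 were Gab1 (distance 0.147) and Stx6 (0.1504), closest to Yes1 Ankib1 (0.258) and Ttn (0.469), and closest to Map4k2 Arid1a (0.126) and Ep400 (0.189). Dgkd was closest to Camsap1 (0.118) and Hnrnpa2b1 (0.337), and Spred2 to Cacna1c (0.361) and Dock4 (0.450). Gab1, with 3, 4, 5 and 3 reads, shows how few reads such a likeness can rest on.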

How the data were processed

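Per the file headers, each library has a deposited file that gives, for every circRNA, its back-splice count, its non-junction count and a fraction computed from them. A merged matrix of the back-splice counts was also deposited. A further deposited table holds the authors' log2 fold changes, p-values and score columns, with the contrast not stated. The submitters' processing notes name BWA 0.7.5a-r405, HTSeq 0.9.1 and mm9; which program called the circRNAs is not stated there or in the labels. The merged matrix differed from the library files in 0 cells. Replicate libraries were compared by chi-square over the 102 circRNAs listed in all 4 (p = 0.913 for sham, 0.377 for I/R) and each library was kept as 1 replicate. Pairs across groups gave p from 0.011 (sham 1 against I/R 4) to 0.9965 (sham 2 against I/R 3) by the same test. The comparison therefore does not show replicates to be more alike than the groups. It leaves out Dgkd and Spred2, which some libraries do not list.

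Counts were tested with edgeR 4.0.16 (quasi-likelihood, TMM, R 4.3.3) over all features, with Benjamini-Hochberg adjustment, checked on simulated data. circRNAs or hosts needed 10 reads and 2 libraries with a read. Non-junction reads and the ratio (a kind-of-read by group term with a term per library) used the circRNAs listed in all libraries. DESeq2 1.42.0 and limma 3.58.1 were alternatives. The SE comes from the F statistic. Intervals of the circular share are Clopper-Pearson limits for back-splice reads among both kinds of read, turned into the share (scipy 1.17.1). Of 489 pathway list genes, 488 were found in RefSeq's table. Named are all member circRNAs, the 3 hosts with most reads of each list, any host called, and the 2 hosts most like each member (prior count 2). The family relatives were picked by name. One further host of the kinase list that the rule names is not reported here. Members, lists and rules were chosen with earlier results of these data known.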

Additional observations from a re-analysis of the deposited data

How the results depend on the processing

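No paired analysis was made because the labels name no pairs between sham and I/R libraries. Counts of circRNA calls were 0 in the main test, 3 with no filter on low counts and 11 in the unfiltered limma-voom fit, which was chosen after seeing the data, and 0 without any 1 library; host calls were 0, and 1 with no filter. Non-junction calls were 9, against 4 by library size only, 5 with RLE factors, 2 in DESeq2, 4 with 1 circRNA per host and 1 to 8 without a library (2 without sham 2, 1 without I/R 4). Ratio calls were 0, and 0 to 2 without a library (2 without I/R 3, no member among them). The median difference in circular share of the 4 members, 2.55 percentage points, ranged from -0.46 (without I/R 3) to 5.88 (without I/R 4). The difference in the members' share of back-splice reads, -0.26 points, was 0.58 over circRNAs listed in all libraries, -0.11 with Ttn left out of the total and from -0.51 (without sham 1) to -0.019 (without sham 2) without a library, with -0.026 without I/R 4 and -0.50 without I/R 3. At Map4k2 the log2 fold change of back-splice reads, 0.02, was -0.094 by library size only, -0.044 in limma-voom, -0.019 with no filter, -0.083 in the unfiltered limma-voom fit and from -0.69 to 0.42 without a library; per host, 0.04, it was -0.079 by library size only, -0.028 with RLE factors, -0.031 in DESeq2 and from -0.48 to 0.42 without a library. The Tlk1 host sum ran from -0.12 to 0.41 without a library. At Tlk1 exons 2 to 4 the ratio change was 0.013 by library size only and from -0.51 to 0.26 without a library, where back-splice reads ran from -0.59 to 0.22 and non-junction reads from -0.13 to 0.044. At Tlk1 exons 2 to 3 back-splice reads ran from -0.22 to 0.50 and the ratio from -0.54 to 0.24 without a library. Without I/R 4, Spred2 has no value because I/R 3 lists no read of it. The cause of these changes was not tested.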
